A study of Mus musculus with 2 samples.

Results

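The tripartite motif (TRIM) family was described here in mouse lung. Its members were the rows of the expression table whose gene symbol begins with Trim followed by a digit, which gave 58 of 17943 genes. Of these, 45 had a mean over the libraries of at least 0.5 FPKM and are called measured, and 13 lay under that limit. FPKM are fragments mapped to a gene, scaled to transcript length and to the size of the library. RNA came from whole lung of wild type C57BL/6 mice, a common inbred laboratory strain, aged 6 to 8 weeks. Adenovirus had been given by the nose for 3 days, either a vector carrying interleukin 17B, a secreted cytokine (Adv-IL-17B, 1 library), or the empty vector (Adv-EV, 1 library). All animals in the comparison had therefore received virus, and animals without virus were not analysed here. The labels do not name the promoter in the vector or the number of mice behind each library, and the design text speaks of triplicates. The comparison addressed which genes differ in lung given IL-17B, and since each group is 1 library, none of the differences was checked in a replicate.

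TRIM proteins share a RING finger, B-box zinc fingers and a coiled coil, and most of them are ubiquitin ligases: the RING recruits a ubiquitin-loaded E2 enzyme, and the part after the coiled coil selects the substrate. In the largest class that part is a B30.2/SPRY domain. Several members of this class are induced by interferon and act on viruses or on the sensors of viral RNA and DNA, while other members serve chromatin, microtubules, muscle or nerve cells. In lung, TRIM proteins are best known for tuning RIG-I, MDA5, STING and Toll-like receptor signalling in epithelium and macrophages.

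Il17b, the gene carried by the vector, stood at 93.2 FPKM in Adv-IL-17B, on about 346 fragments, and was listed at 0 in Adv-EV, where a 0 allows up to 0.807 FPKM. From the spacing of low FPKM values, either library was estimated to hold about 5690000 fragments. The intervals given with ratios are exact Clopper-Pearson 95% intervals on the estimated fragments and cover counting error only. Such an interval compares these libraries, not the conditions. In whole tissue, fewer cells of a type and less RNA per cell cannot be told apart.

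The family as a whole stood at nearly the same level in the libraries. Summed over the 58 members, expression came to 594 FPKM in Adv-IL-17B and 557 FPKM in Adv-EV, or 0.109% of all FPKM in Adv-IL-17B and 0.103% in Adv-EV. The median log2 ratio of the 45 measured members was -0.022, on log2(FPKM + 0.1) of Adv-IL-17B minus Adv-EV, with an interquartile range from -0.19 to 0.21. The median over all 15056 genes measured was -0.0056, with an interquartile range from -0.24 to 0.23. By the rule of size used throughout, a 2-fold difference on that scale, 1 member was higher in Adv-IL-17B (Trim30b) and 1 lower (Trim29). Among all genes measured 3.95% were higher and 2.68% lower by that rule, so the members' share of 2 in 45, or 4.44%, was near the 6.63% of all genes past the rule either way. At 1.5-fold 3 members were higher (Trim30b, Trim59 and Trim30a) and 2 lower (Trim29 and Trim54), beside 9.42% and 8.2% of all genes. The counting interval lay above 1 for 9 members (20%) and below 1 for 4 (8.89%), beside 17.1% and 16.0% of the 14870 measured genes whose transcript length was known. These shares were near or below those of all genes, and the larger differences lay in a few named genes.

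**Figure D1:**
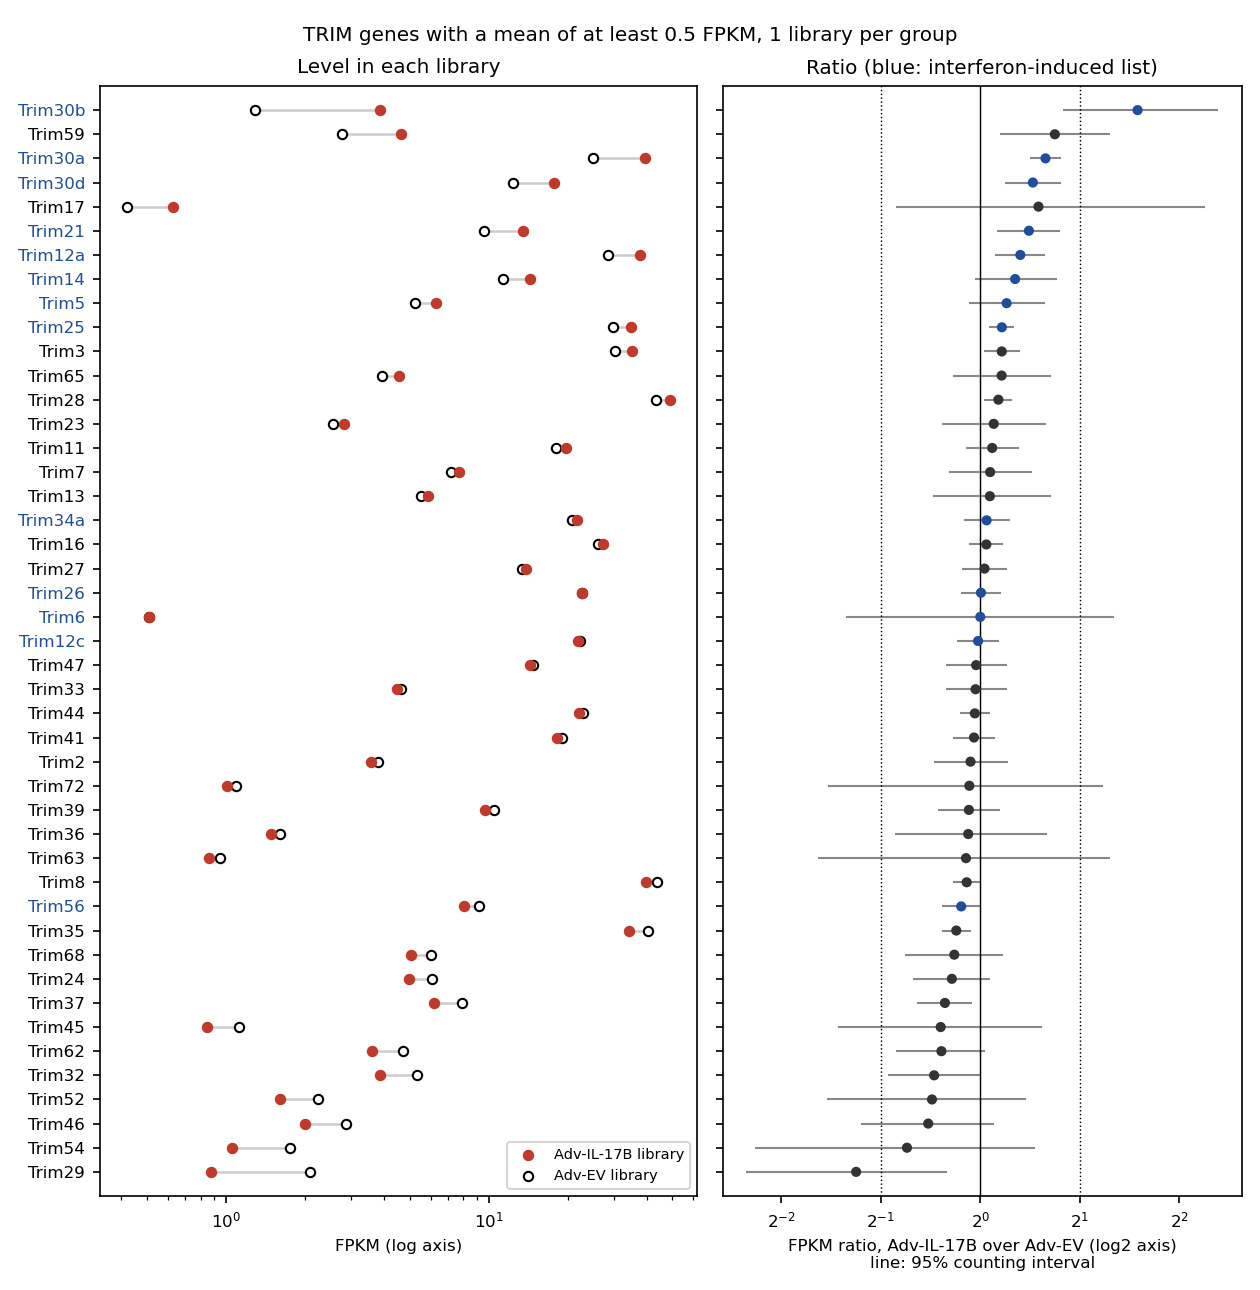
The left panel plots FPKM (log axis) of each of the 45 measured TRIM genes in the Adv-IL-17B library (filled) and the Adv-EV library (open). The right panel plots their plain FPKM ratio (log2 axis) with its 95% counting interval, dotted lines at 2-fold. Trim30b at 2.99 and Trim29 at 0.421 lie past 2-fold, and the other 43 genes lie inside it.

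Most of the family's 10 most abundant members differed little in level. Trim28, which encodes KAP1, the corepressor of KRAB zinc-finger proteins, had the highest mean, with 48.98 FPKM in Adv-IL-17B and 43.2 FPKM in Adv-EV (ratio 1.13, interval 1.03 to 1.25). Trim8, a regulator of cytokine signalling, followed with 39.6 FPKM in Adv-IL-17B and 43.6 FPKM in Adv-EV, and Trim35 with 34.3 FPKM in Adv-IL-17B and 40.5 FPKM in Adv-EV (ratio 0.846, interval 0.765 to 0.936). Trim3, of the NHL class and best known from brain, stood at 35.04 FPKM in Adv-IL-17B and 30.17 FPKM in Adv-EV (ratio 1.16, interval 1.03 to 1.31). Trim28 and Trim3 were thus slightly higher and Trim35 slightly lower in Adv-IL-17B, with intervals that left out 1 at the deposited scaling. Trim16, which takes part in the autophagy of damaged membranes, stood at 27.1 FPKM in Adv-IL-17B and 25.99 FPKM in Adv-EV, and Trim44, which lacks a RING, at 22.04 FPKM in Adv-IL-17B and 22.9 FPKM in Adv-EV. The other 4 of these members, Trim12a, Trim25, Trim30a and Trim26, belong to the list of interferon-induced TRIM genes described next.

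A list of 17 interferon-induced TRIM genes had 14 rows in the table, of which 13 were measured. Of these, 10 had a log2 ratio above 0, 2 below 0 and 1 equal to 0, with a median of 0.26. Of the other 32 measured members 11 lay above 0 and 21 below, with a median of -0.098, and of all genes measured 48.6% lay above 0. By the rule of size 1 of the 13 was higher and 0 were lower, beside 3.95% and 2.68% of all genes measured. The counting interval lay above 1 for 6 (Trim30b, Trim30a, Trim30d, Trim21, Trim12a and Trim25) and below 1 for 1 (Trim56). Over all measured genes of known transcript length those shares were 17.1% and 16.0%. Trim22, Trim30c and Trim38 of the list were not analysed here.

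Of the measured members 8 lie in 1 cluster of related genes on mouse chromosome 7, which runs from Trim6 (start 104218795) to the pseudogene Trim30e-ps1 (end 104535361 of mm10), a span of 317 kb with 10 members in all. Their median log2 ratio was 0.33, and that of the 37 measured members elsewhere was -0.063. All 8 belong to the interferon-induced list, so this comparison is not separate from that of the list. Trim30b (104355398 to 104358646), a short relative of Trim30a, had the highest ratio of all measured members: it stood at 3.86 FPKM in Adv-IL-17B and 1.29 FPKM in Adv-EV, on about 60 and 20 fragments (ratio 2.99, interval 1.78 to 5.25). Trim30a (104409025 to 104465193), which in mouse limits NF-kappaB signalling below Toll-like receptors by removing the adaptors TAB2 and TAB3, stood at 39.2 FPKM in Adv-IL-17B and 24.9 FPKM in Adv-EV (ratio 1.58, interval 1.41 to 1.76). Its neighbour Trim30d (104470014 to 104507853), known in mouse for restricting tick-borne flaviviruses, stood at 17.8 FPKM in Adv-IL-17B and 12.3 FPKM in Adv-EV (ratio 1.44, interval 1.19 to 1.75). All 3 Trim30 genes of the cluster that were measured were therefore higher in Adv-IL-17B, each with an interval above 1.

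The genes of the cluster related to human TRIM5, a capsid-binding restriction factor of retroviruses, were less uniform. Trim12a stood at 37.5 FPKM in Adv-IL-17B and 28.4 FPKM in Adv-EV (ratio 1.32, interval 1.11 to 1.57). Trim12c stood at 21.8 FPKM in Adv-IL-17B and 22.2 FPKM in Adv-EV (ratio 0.985, interval 0.852 to 1.14). Trim5 stood at 6.32 FPKM in Adv-IL-17B and 5.26 FPKM in Adv-EV (ratio 1.202, interval 0.925 to 1.57). Of the other genes of the cluster, Trim34a was nearly level at 21.6 FPKM in Adv-IL-17B and 20.7 FPKM in Adv-EV, and Trim6, a ligase that activates the kinase IKK-epsilon, stood at 0.51 FPKM in either library on about 11 fragments. Among these genes the interval of Trim12a lay above 1 and that of Trim12c spanned 1, and the difference between those genes was not tested. Trim34b (0.33 FPKM in Adv-IL-17B and 0.15 FPKM in Adv-EV) and Trim30e-ps1 (0.10 FPKM in Adv-IL-17B, listed at 0 in Adv-EV, where a 0 allows up to 0.285 FPKM) were under the filter.

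**Figure D2:**
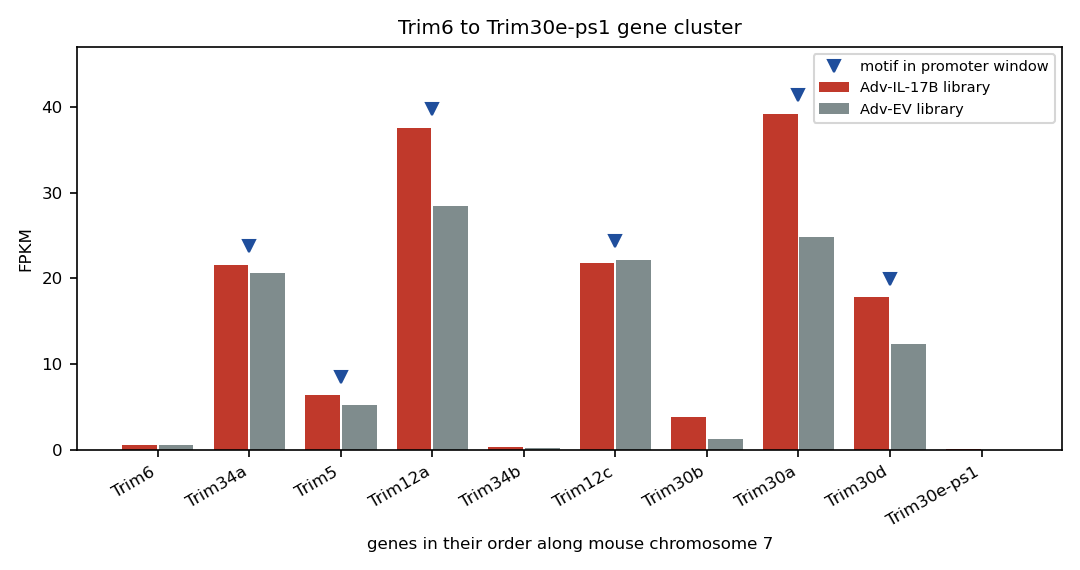
Bars give FPKM of the 10 TRIM genes of the chromosome 7 cluster in the Adv-IL-17B library (red) and the Adv-EV library (grey), in gene order, and triangles mark genes with an interferon response element motif in a promoter window. Trim30a, Trim30d, Trim30b and Trim12a stand higher in Adv-IL-17B, while Trim34a and Trim12c are nearly level.

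Reads of such relatives can be split between them, and no source used here gives the handling of reads with several matches. Between the coding sequences of the GENCODE transcripts, Trim34a and Trim34b were 98.8% identical, and Trim12c and Trim5 96.6%. The 891 coding bases of Trim12a were 97.1% identical to Trim5 and 96.4% to Trim12c. Trim30a and Trim30d were 90.2% identical, whereas the 477 coding bases of Trim30b were 77.6% identical to Trim30a. Stretches of 50 bases found in the transcripts of another gene made up 31.2% of Trim12a, 33.04% of Trim12c, 38.1% of Trim5, 41.5% of Trim34a and 59.0% of Trim34b. They made up 6.53% of Trim30a and 7.59% of Trim30d, and 0 of 2722 such stretches in Trim30b. The levels of Trim12a, Trim12c, Trim5 and the Trim34 genes are therefore uncertain in how they divide, and the Trim30b value does not rest on sequence shared with another annotated transcript at that length.

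The promoters of the interferon-induced list are shown because their members' log2 ratios lay mostly above 0 and because interferon acts through a known element there. The interferon-stimulated response element was searched on both strands as GAAA, any 2 bases and GAAA again, which reads TTTC, any 2 bases and TTTC on the other strand, in windows from 250 bases before to 50 after each RefSeq gene start (GRCm38.p6, the assembly of mm10). Windows were found for 43 of the 58 members. The motif was present in 8 of the 12 measured list members with a window (Trim30a, Trim30d, Trim21, Trim12a, Trim5, Trim34a, Trim26 and Trim12c), in 1 of the 22 other measured members with a window (Trim2), and in 3.99% of the 27025 genes with a window. The gamma-activated site, searched as TTCNNNGAA, was present in 0 of those 12 list members and in 9.55% of all genes. When members were split by ratio, 1 of the 3 past 1.5-fold upward held the interferon element (Trim30a, but not Trim30b or Trim59). The other measured members with a window held it in 8 of 31, so the shares were 33.3% and 25.8%. A link between motif and ratio was not tested. The list was chosen for interferon induction, so its share describes the list and not a difference between these libraries. The 30 bases around the first match, with the letters of each match in capitals and read along the gene, were as follows for the 8 list members.
Trim30a: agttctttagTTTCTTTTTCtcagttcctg
Trim30d: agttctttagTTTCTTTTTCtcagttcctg
Trim12a: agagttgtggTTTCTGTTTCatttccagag
Trim5: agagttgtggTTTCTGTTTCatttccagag
Trim12c: agagttgtggTTTCTGTTTCatttccagct
Trim34a: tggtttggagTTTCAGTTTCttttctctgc
Trim21: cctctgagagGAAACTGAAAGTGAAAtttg
Trim26: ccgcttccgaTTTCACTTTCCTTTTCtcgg
The Trim30a match began 36 bases before the start on the minus strand, in the window chr7:104465144-104465443, and the window of a further start of that gene also held 1 match. The other windows were chr7:104507800-104508099 for Trim30d, chr7:104315446-104315745 for Trim12a, chr7:104288057-104288356 for Trim5, chr7:104353300-104353599 for Trim12c and chr7:102565433-102565732 for Trim21, all on the minus strand. Those of Trim34a (chr7:104244207-104244506) and Trim26 (chr17:36836896-36837195) were on the plus strand. The matches of Trim30d, Trim5, Trim12c and Trim26 began 41, 49, 29 and 160 bases before their starts. The matches of Trim12a, Trim34a and Trim21 began 10, 10 and 13 bases after theirs. Trim21 and Trim26 each held 2 overlapping matches, so their capitals run longer. The 30 bases were the same in Trim30a and Trim30d and the same in Trim12a and Trim5, and Trim12c differed from Trim12a at 2 of the 30 bases.

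The 8 list members with the motif had ratios from 0.985 for Trim12c to 1.58 for Trim30a. Of the pairs with the same 30 bases, Trim30a and Trim30d had ratios of 1.58 and 1.44, and Trim12a and Trim5 had ratios of 1.32 and 1.202. Trim12c, which differs from them at 2 bases, had a ratio of 0.985, with an interval that overlapped those of Trim12a and Trim5. Trim26 and Trim34a held the motif at ratios of 1.005 and 1.05. Differences between these genes were not tested, and reads of Trim12a, Trim5 and Trim12c may be split between them. Trim30b, which had the highest ratio, held no match in its window. The 250 bases upstream of Trim30a and of Trim30b, both on the minus strand of chromosome 7, are given for comparison, with the match of Trim30a in capitals. The first lies at chr7:104465194-104465443 and the second at chr7:104358647-104358896.
Trim30a: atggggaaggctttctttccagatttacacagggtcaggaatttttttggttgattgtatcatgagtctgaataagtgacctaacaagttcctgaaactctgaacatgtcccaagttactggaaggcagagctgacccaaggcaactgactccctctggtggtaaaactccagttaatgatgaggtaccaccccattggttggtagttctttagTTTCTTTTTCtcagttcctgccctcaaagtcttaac
Trim30b: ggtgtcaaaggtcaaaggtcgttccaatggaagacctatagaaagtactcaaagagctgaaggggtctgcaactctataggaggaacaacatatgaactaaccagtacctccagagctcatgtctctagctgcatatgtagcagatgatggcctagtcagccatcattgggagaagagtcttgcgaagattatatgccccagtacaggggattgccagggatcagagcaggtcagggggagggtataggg
The stretch of the Trim30b window closest to the 30 bases of Trim30a differed from them at 15 of 30 bases. That these letters are absent says nothing of any factor acting on Trim30b.

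Outside the cluster, the measured genes of the interferon-induced list (Trim21, Trim14, Trim25, Trim26 and Trim56) differed by less than 1.5-fold. Trim21, the cytosolic antibody receptor, which lies on chromosome 7 apart from the cluster (102557920 to 102565482), stood at 13.5 FPKM in Adv-IL-17B and 9.62 FPKM in Adv-EV (ratio 1.40, interval 1.13 to 1.74). Trim14, an adaptor without a RING at the mitochondrial protein MAVS, stood at 14.4 FPKM in Adv-IL-17B and 11.3 FPKM in Adv-EV, with an interval of 0.962 to 1.71 that spanned 1. Trim25, the ligase that modifies RIG-I and can also attach ISG15, stood at 34.6 FPKM in Adv-IL-17B and 29.8 FPKM in Adv-EV (ratio 1.16, interval 1.06 to 1.27). These 3 genes lay on the higher side, Trim21 and Trim25 beyond counting error. Trim26, which removes IRF3 from the nucleus, was level at 22.7 FPKM in Adv-IL-17B and 22.6 FPKM in Adv-EV. Trim56, a regulator of STING and TLR3 signalling, was lower, at 8.02 FPKM in Adv-IL-17B and 9.16 FPKM in Adv-EV, with an interval of 0.766 to 0.9998 that barely left out 1. Trim65, the ligase of MDA5 and not on that list, stood at 4.56 FPKM in Adv-IL-17B and 3.93 FPKM in Adv-EV (interval 0.829 to 1.64). Genes on the opposite strand overlap 11.4% of the exonic bases of Trim14 and 23.6% of those of Trim34a, and without known strand handling the reads of such partners cannot be told apart.

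Trim59 and Trim29 had the next largest differences of measured members after Trim30b, in opposite directions. Trim59 (chromosome 3, 69035292 to 69044742), a ligase anchored in the endoplasmic reticulum membrane, stood at 4.64 FPKM in Adv-IL-17B and 2.76 FPKM in Adv-EV, on about 77 and 46 fragments (ratio 1.68, interval 1.147 to 2.47). Trim29 (chromosome 9, 43310715 to 43336125), a member without a RING that is abundant in basal and squamous epithelium and is known in mouse alveolar macrophages for degrading NEMO, stood at 0.88 FPKM in Adv-IL-17B and 2.09 FPKM in Adv-EV, on about 13 and 32 fragments (ratio 0.421, interval 0.196 to 0.796). With a pseudocount of 1 the log2 ratio of Trim29 was -0.72, inside the 2-fold limits. Among markers of alveolar macrophages 3 of 9 were lower by the rule of size and 0 higher, beside 2.68% and 3.95% of all genes measured. Their summed level was 308 FPKM in Adv-IL-17B and 465 FPKM in Adv-EV. Most of either sum came from Chil3 (154 FPKM in Adv-IL-17B and 208.45 FPKM in Adv-EV) and Car4 (81.6 and 148 FPKM). Of 8 genes of basal and squamous epithelium, listed after the values were seen, 7 had rows and 2 were measured. Those 7 summed to 13.4 FPKM in Adv-IL-17B and 7.70 FPKM in Adv-EV, but nearly all of that sum was Sprr1a, a cornified envelope gene, at 12.57 FPKM in Adv-IL-17B and 6.41 FPKM in Adv-EV. The keratin genes of the list were near 0 and of mixed direction: Krt15 stood at 0.42 FPKM in Adv-IL-17B and 0.63 FPKM in Adv-EV, Krt14 and Krt13 were listed at 0 in Adv-IL-17B and at 0.36 and 0.15 FPKM in Adv-EV, and Krt4 stood at 0.17 FPKM in Adv-IL-17B and was listed at 0 in Adv-EV. Trp63, a defining gene of basal cells, stood at 0.15 FPKM in either library. The part of the alveolar macrophage and epithelial markers in the Trim29 value was not tested. Trim17, the other member with a ratio near the top, had 0.63 FPKM in Adv-IL-17B and 0.42 FPKM in Adv-EV, where 11 and 7 fragments were estimated, and its interval of 0.556 to 4.78 spanned 1.

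**Figure D3:**
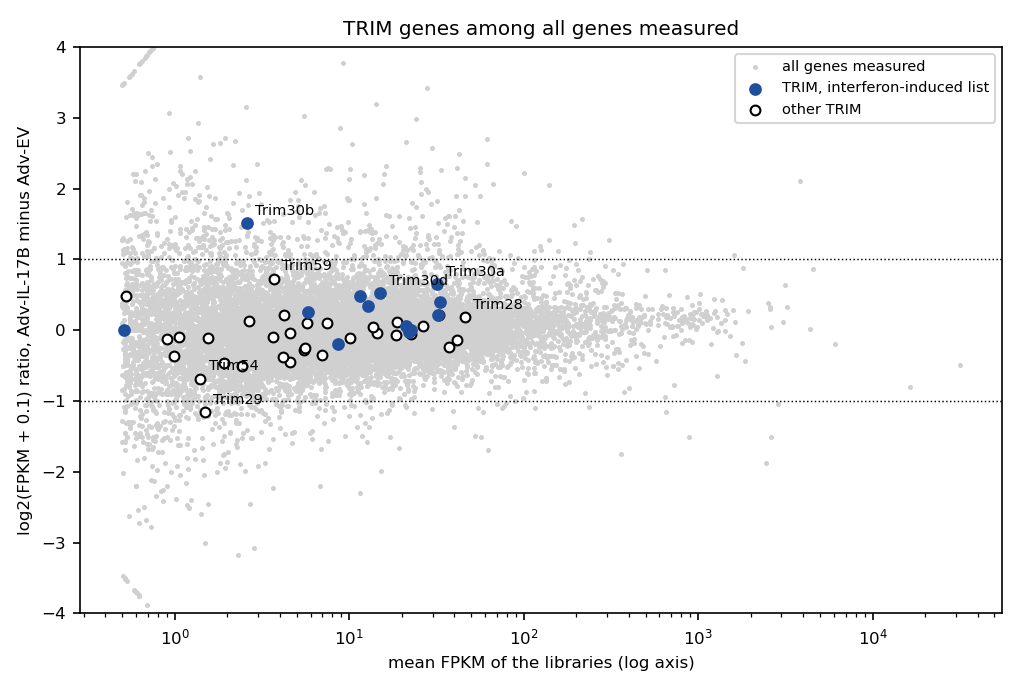
The log2 ratio of Adv-IL-17B minus Adv-EV is plotted against the mean FPKM (log axis) for all genes measured (grey), TRIM genes of the interferon-induced list (blue) and other TRIM genes (open), with dotted lines at 2-fold; 134 genes lie beyond the axis limits of 4. Only Trim30b and Trim29 of the 45 TRIM genes lie past 2-fold, and both have mean levels under 5 FPKM.

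Counts by domain stand beside those of all 15056 genes measured, of which 7323 had a log2 ratio above 0 and 7654 below. By domain, the 23 measured members listed in the B30.2/SPRY class had a median log2 ratio of 0.063, with 14 above 0 and 8 below. Trim30b of that list was past the rule of size. Classes were assigned by gene, and the domain was not checked in each transcript. The 477 coding bases of Trim30b and the 891 of Trim12a were fewer than the 1488 of Trim30a, so both may lack the domain. Members without a RING were listed apart. The 3 measured chromatin readers with a PHD finger and a bromodomain had a median of -0.046. Among them Trim24, a cofactor of nuclear receptors, stood at 4.98 FPKM in Adv-IL-17B and 6.07 FPKM in Adv-EV (interval 0.628 to 1.07), and Trim33, a cofactor in TGF-beta signalling, at 4.49 FPKM in Adv-IL-17B and 4.64 FPKM in Adv-EV. The NHL class had a median of -0.096, from Trim3 above to Trim32, a ligase mutated in limb-girdle muscular dystrophy, at 3.85 FPKM in Adv-IL-17B and 5.31 FPKM in Adv-EV (ratio 0.725, interval 0.525 to 1.0008). All 4 measured members of the COS-box class, which binds microtubules or muscle sarcomeres, lay below 0, with a median of -0.32, and every interval in that class spanned 1. The 3 measured members with no further named domain (Trim8, Trim56 and Trim52) also lay below 0. Trim52 stood at 1.6 FPKM in Adv-IL-17B and 2.24 FPKM in Adv-EV on about 16 and 23 fragments. Of the other classes Trim37, which acts in peroxisomes and is mutated in mulibrey nanism, stood at 6.16 FPKM in Adv-IL-17B and 7.88 FPKM in Adv-EV (ratio 0.782, interval 0.644 to 0.945), and Trim45 at 0.85 FPKM in Adv-IL-17B and 1.12 FPKM in Adv-EV. Trim62 at 3.60 FPKM in Adv-IL-17B and 4.72 FPKM in Adv-EV (interval 0.556 to 1.03) and Trim68 at 5.04 FPKM in Adv-IL-17B and 6.04 FPKM in Adv-EV, both of the B30.2/SPRY class, had intervals that spanned 1. Among the 12 measured members with the lowest ratios, the interval thus lay below 1 for Trim29, Trim37, Trim35 and Trim56.

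The remaining 10 measured members (Trim23, Trim11, Trim7, Trim13, Trim27, Trim47, Trim41, Trim2, Trim39 and Trim36) had log2 ratios between -0.11 and 0.13, at levels from 1.48 to 19.6 FPKM in Adv-IL-17B and from 1.61 to 19.06 FPKM in Adv-EV. All of their intervals spanned 1. Opposite-strand genes overlap 21.6% of the exonic bases of Trim7.

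The muscle members of the family were present in these lungs at low levels. Trim54, a sarcomere protein also called MuRF3, stood at 1.05 FPKM in Adv-IL-17B and 1.75 FPKM in Adv-EV on about 8 and 14 fragments (ratio 0.600, interval 0.208 to 1.46). Trim63, the atrophy ligase MuRF1, stood at 0.86 FPKM in Adv-IL-17B and 0.95 FPKM in Adv-EV, and Trim72, the membrane repair protein MG53, at 1.01 FPKM in Adv-IL-17B and 1.09 FPKM in Adv-EV. Trim55, or MuRF2, was under the filter at 0.10 FPKM in Adv-IL-17B and 0.30 FPKM in Adv-EV. All 4 were lower in Adv-IL-17B, within counting error. Skeletal muscle genes lay on the same side: 9 of 9 had a log2 ratio below 0, with a median of -0.26. Of all 15056 genes measured 7654 lay below 0, with a median of -0.0056. The skeletal muscle genes summed to 313 FPKM in Adv-IL-17B and 384 FPKM in Adv-EV. The 8 heart muscle genes were of mixed direction, with 5 below 0, 2 above (Tnnt2 and Sln) and 1 at 0. They summed to 101 FPKM in Adv-IL-17B and 130 FPKM in Adv-EV. Their part in the muscle members' values was not tested. Exons of antisense genes overlap 26.6% of Trim54 and 28.3% of Trim72. Trim46, which organises microtubules at the start of the axon, stood at 1.99 FPKM in Adv-IL-17B and 2.86 FPKM in Adv-EV (interval 0.434 to 1.10).

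The 13 members under the filter had few or no fragments. The closest of them to the limit was Trim15 at 0.40 FPKM in Adv-IL-17B and 0.51 FPKM in Adv-EV, and the closest inside it were Trim6 and Trim17. Trim10 and Trim58, both needed in the maturation of red cells, were listed at 0 in Adv-IL-17B and at 0.40 and 0.16 FPKM in Adv-EV, about 5 and 2 fragments. A 0 allows up to 0.239 FPKM for Trim10 and 0.245 FPKM for Trim58, so only the Trim10 value in Adv-EV lay above that limit. All 6 measured red cell genes were past the rule of size on the lower side, beside 2.68% of all genes measured. The 7 listed summed to 3040 FPKM in Adv-IL-17B and 9606 FPKM in Adv-EV. Slc4a1, the anion exchanger of the red cell membrane, stood at 0.08 FPKM in Adv-IL-17B and 1.01 FPKM in Adv-EV. The part of red cell RNA in the Trim10 and Trim58 values was not tested. Trim67, a brain member, stood at 0.02 FPKM in Adv-IL-17B and 0.21 FPKM in Adv-EV on about 1 and 10 fragments (interval 0.00230 to 0.703). The embryo genes Trim43a, Trim43b and Trim43c ranged from 0.30 to 0.38 FPKM in Adv-IL-17B and from 0.23 to 0.31 FPKM in Adv-EV. These 3 genes share between 42.3% and 48.8% of their 50-base stretches with other transcripts, and an opposite-strand gene overlaps 38.6% of the exonic bases of Trim43c. Trim69 stood at 0.30 FPKM in Adv-IL-17B and 0.20 FPKM in Adv-EV, Trim66 at 0.08 FPKM in Adv-IL-17B and 0.04 FPKM in Adv-EV, and Trim9 was listed at 0 in Adv-IL-17B and at 0.04 FPKM in Adv-EV.

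Of 4 measured TRIM proteins that go by other symbols, 1 was past the rule of size on the higher side and 3 had log2 ratios above 0. Those shares were 3.95% and 48.6% over all genes measured. Mefv, which encodes pyrin, an inflammasome sensor of neutrophils and monocytes, stood at 7.66 FPKM in Adv-IL-17B and 2.31 FPKM in Adv-EV (ratio 3.32, interval 2.30 to 5.02). Pml, the organiser of nuclear bodies and an interferon-induced gene, stood at 16.04 FPKM in Adv-IL-17B and 11.6 FPKM in Adv-EV (ratio 1.39, interval 1.19 to 1.62). Mid1, a microtubule-bound ligase, stood at 7.84 FPKM in Adv-IL-17B and 5.57 FPKM in Adv-EV (ratio 1.41, interval 1.10 to 1.80), and its relative Mid2 at 7.22 FPKM in Adv-IL-17B and 8.29 FPKM in Adv-EV (interval 0.729 to 1.04). Mefv was the one past the rule, Pml and Mid1 were inside it, and Mid2 lay below 0. Neutrophil markers were also higher in Adv-IL-17B, with the values given at the end, and their part in the Mefv value was not tested.

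Genes that work with TRIM proteins in interferon and virus sensing pathways lay mostly above 0. All 5 genes of ISG15 conjugation had log2 ratios above 0, with a median of 0.44. Of these Isg15 itself was past the rule, at 316 FPKM in Adv-IL-17B and 158 FPKM in Adv-EV (ratio 2.002, interval 1.82 to 2.204). Of 14 genes of RIG-I and cGAS sensing 12 lay above 0 and 2 were past the rule on the higher side: Ikbke, the kinase IKK-epsilon that Trim6 activates, at 16.7 FPKM in Adv-IL-17B and 6.36 FPKM in Adv-EV, and the nucleic acid sensor gene Zbp1 at 113 FPKM in Adv-IL-17B and 54.1 FPKM in Adv-EV. Isg15 and Zbp1 passed the rule narrowly, with log2 ratios of 1.001 and 1.057. The median of the RIG-I and cGAS sensing list was 0.37, and that of 10 interferon signalling genes was 0.35 with 0 past the rule. The ubiquitin E2 enzymes that RING ligases draw on differed less, with a median of 0.11 over 12 measured genes and 0 past the rule. The ubiquitin and E1 genes had a median of 0.13 over 6 genes, and 0 of them were past the rule. These medians stand beside -0.0056 over all genes measured. Of all genes measured 48.6% lay above 0, and 3.95% were past the rule on the higher side.

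**Figure D4:**
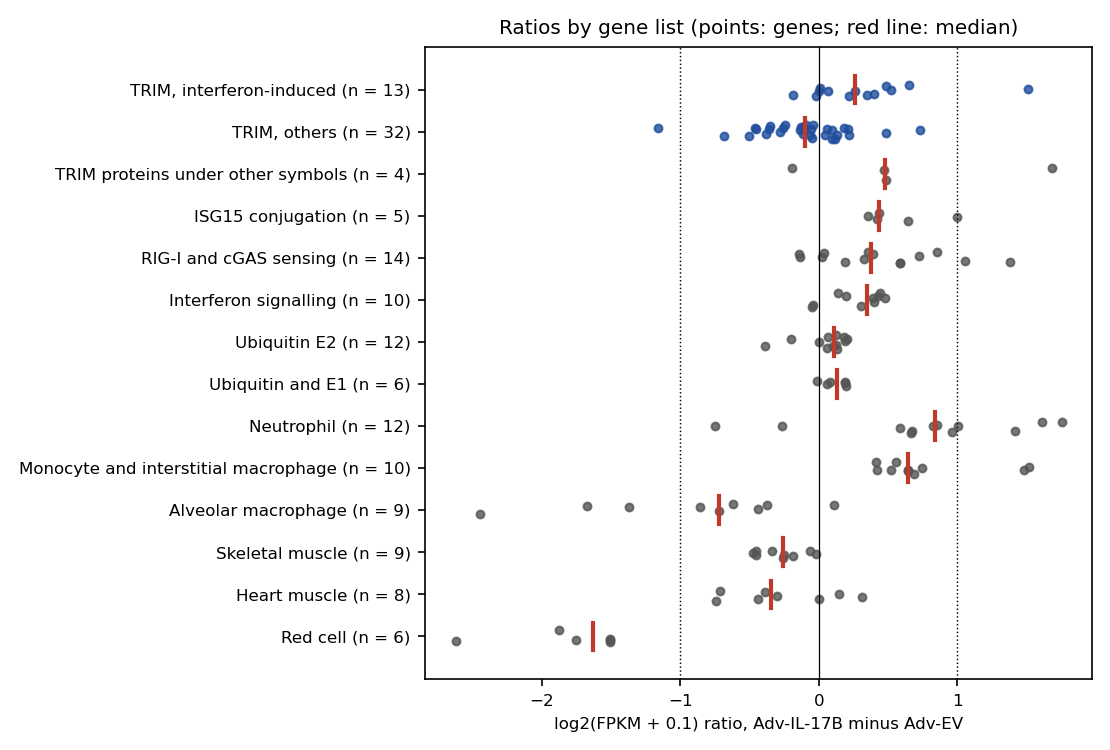
Each point is the log2 ratio (Adv-IL-17B minus Adv-EV, on FPKM + 0.1) of 1 measured gene, by list, with the list's median as a red line and dotted lines at 2-fold. The 13 interferon-induced TRIM genes have a median of 0.26, the other 32 TRIM genes one of -0.098, and the red cell genes lie below -1.

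Cell type markers also differed between the libraries, and 48.6% of all genes measured had a log2 ratio above 0. Neutrophil markers had a median log2 ratio of 0.84, with 10 of 12 above 0, and summed to 747 FPKM in Adv-IL-17B and 440 FPKM in Adv-EV. Markers of monocytes and interstitial macrophages had a median of 0.64, with 10 of 10 above 0, and summed to 3068 FPKM in Adv-IL-17B and 2072 FPKM in Adv-EV. Alveolar type 2 cell markers summed to 15301 FPKM in Adv-IL-17B and 24812 FPKM in Adv-EV, with a median log2 ratio of -0.30. Most of that sum was Sftpc, at 11922.4 FPKM in Adv-IL-17B and 20843.5 FPKM in Adv-EV. Club cell markers summed to 27983 FPKM in Adv-IL-17B and 39584 FPKM in Adv-EV, with a median of -0.64, and most of that sum was Scgb1a1. Endothelial markers summed to 871 FPKM in Adv-IL-17B and 989 FPKM in Adv-EV, with a median of -0.25. Scgb1a1 had the highest level of all genes measured, at 26446 FPKM in Adv-IL-17B and 37109.1 FPKM in Adv-EV. Other epithelial markers stood far lower, such as the alveolar type 2 marker Abca3 at 56.03 FPKM in Adv-IL-17B and 67.04 FPKM in Adv-EV. T cell markers had a median of 0.30 and B cell markers of 0.028, and the medians of alveolar type 1 and ciliated cell markers were -0.34 and -0.13. The part of any of these cell types in the TRIM values was not tested.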

How the data were processed

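The authors deposited 1 table of FPKM values, rounded to 2 decimals, with 1 column per group. Bowtie2, HISAT and the build mm10 are named in the submitters' processing notes. The sources used here do not give the program that made FPKM, its annotation, filters or strand handling. Columns were matched to samples by title. Log2 ratios and the rule of size were taken on log2(FPKM + 0.1), for genes whose mean reached 0.5 FPKM. Ratios of single genes not marked as log2 are plain FPKM ratios, without the added 0.1. With 1 library per group, no statistical test could be made.

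Fragments were estimated from the steps of low FPKM values, with transcript lengths from GENCODE M21 by RefSeq accession (98.3% of genes) less 40 bases. At 5690000 fragments per library, 81.5% (Adv-IL-17B) and 82.8% (Adv-EV) of the low values of genes with 1 transcript lay within 0.2 of a whole number, among 1149 and 1153 values. Fragments summed over genes came to 5791108 and 5773686, slightly above that total, so fragment numbers are approximate. Intervals and floors of 3 fragments cover counting error only. The estimate and the size rule were run on simulated counts that used the same transcript lengths and held counting error only. That run could not address spread between animals, reads shared by related genes, or changes in genes with few fragments.

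Members, lists and classes were chosen with earlier results of these data known. Full values were given for measured members of the interferon-induced list, those past the size rule, the 12 highest and 12 lowest ratios and the 10 highest levels. Promoters came from RefSeq (GRCm38.p6). Coding nucleotide identity, aligned with Biopython 1.88, replaced the planned protein identity. Alternatives were pseudocounts, filters, scaling, centring and a 1.5-fold rule.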

Additional observations from a re-analysis of the deposited data

How the results depend on the processing

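The counts of 1 higher and 1 lower TRIM member depended on the treatment of low values. With a pseudocount of 1, 1 was higher and 0 lower, Trim29 being the gene lost, which also left 0 lower in the class without a RING, and the median of the classes with 1 member each was -0.20. With no filter, 2 of 58 were higher and 5 lower, all those added having a mean under 0.5 FPKM. In that setting the B30.2/SPRY class had 2 lower, the COS-box class had 2 lower and a median of -0.50, and the PHD-bromodomain class a median of 0.068. At 1.5-fold, 3 were higher and 2 lower. Over all genes the counts were 351 higher and 176 lower with a pseudocount of 1, and 1146 and 1009 with no filter. A pseudocount of 0.01, a mean of at least 1 FPKM, centring, and at least 20 estimated fragments (chosen after seeing the data) changed no count of TRIM members. Scaling without the 100 most abundant genes shifted log2 ratios by 0.063 towards Adv-EV and turned the sign of Trim16, Trim26 and Trim27, each within 0.1 of 0, and left Trim30b and Trim29 past 2-fold. Counts of intervals above and below 1 were not repeated with that scaling, whose factor was 1.044. The lower bounds of Trim28 and Trim3 were 1.03, so their intervals would then span 1. The upper bounds of Trim8 (1.001), Trim32 (1.0008) and Trim62 (1.03) would then lie below 1. Outside the family, Isg15 and Zbp1, with log2 ratios of 1.001 and 1.057, would then lie inside the 2-fold limits. No paired analysis was possible because each group has 1 library, and for the same reason no library could be left out. At about 5690000 fragments per library, members with a mean under 1 FPKM rest on at most 21 fragments each in a library, which limits their precision.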
